A study of Mus musculus with 6 samples.

Results

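The 36 genes described here build cholesterol and fatty acids, control that synthesis, or move sterols into and out of the cell. They were taken from the 31017 genes of the deposited count table by name, from a fixed list of 7 mevalonate pathway genes, 11 genes that carry squalene to cholesterol, 5 genes of SREBP control, 2 genes of lipoprotein uptake and sterol transport, 3 genes of efflux and 8 genes of fatty acid synthesis. All 36 passed the filter on low counts, which kept 14268 genes, and each held at least 24 reads in every library. The libraries are RNA sequencing of mouse Th17 cells, helper T cells named for interleukin 17, differentiated in culture. There were 3 control libraries (genotype WT) and 3 libraries from cells deficient in RTF1 (genotype KO). RTF1 travels with elongating RNA polymerase II and promotes ubiquitination of histone H2B, and its role in Th17 differentiation is the question the study names. The allele, the way the gene was removed, the strain and the age of the mice are not given in the sources used here. The labels do not say whether replicates came from separate mice, so p-values measure the spread between these libraries, which may be partly technical. Y-linked reads, given below, were plentiful only in replicate 3 of each group, so the libraries of a group did not all come from the same mouse.

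Cholesterol is built from acetyl-CoA through mevalonate, farnesyl diphosphate and squalene, which is closed into lanosterol and then trimmed to cholesterol. The transcription factors SREBP-1 and SREBP-2 switch on these enzymes when the escort protein SCAP carries them out of the endoplasmic reticulum, and the INSIG proteins hold SCAP back when sterols are plentiful. Activated T cells need both cholesterol and fatty acids for new membranes as they divide.

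Promoter sequences were at hand for 28 of the 36 genes (RefSeq, build GRCm38.p6, the assembly also called mm10), and 6 are printed, from genes with different responses. Hmgcs1, Insig1 and Sc5d did not pass the test in KO cells, Mvk and Lss fell, and Ebp rose. Each sequence is printed 5′ to 3′ on the gene's strand, from 250 bases before the RefSeq start, and stops before that start or before the first annotated exon where the exon begins earlier. Capitals mark the SRE core TCACNCCAC, a binding motif of SREBP, the E-box CACGTG, and CCAAT, each searched on both strands, so CCAAT on the other strand reads ATTGG.
Hmgcs1, chr13:119690101-119690350, plus strand: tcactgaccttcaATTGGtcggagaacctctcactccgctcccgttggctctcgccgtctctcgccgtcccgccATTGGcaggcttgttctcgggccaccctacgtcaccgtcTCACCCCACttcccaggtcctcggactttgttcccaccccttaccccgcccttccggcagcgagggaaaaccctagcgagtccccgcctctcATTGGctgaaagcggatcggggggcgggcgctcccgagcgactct
Insig1, chr5:28071162-28071362, plus strand: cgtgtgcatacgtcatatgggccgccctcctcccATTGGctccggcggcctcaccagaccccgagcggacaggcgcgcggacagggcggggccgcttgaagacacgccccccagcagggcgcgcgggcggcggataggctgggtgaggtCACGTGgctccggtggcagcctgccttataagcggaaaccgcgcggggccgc
Sc5d, chr9:42264301-42264550, minus strand: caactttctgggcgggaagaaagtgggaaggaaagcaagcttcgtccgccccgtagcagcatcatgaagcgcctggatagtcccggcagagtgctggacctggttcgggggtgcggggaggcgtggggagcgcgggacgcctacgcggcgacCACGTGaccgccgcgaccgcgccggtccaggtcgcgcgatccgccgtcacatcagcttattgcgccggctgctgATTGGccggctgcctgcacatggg
Mvk, chr5:114444019-114444268, plus strand: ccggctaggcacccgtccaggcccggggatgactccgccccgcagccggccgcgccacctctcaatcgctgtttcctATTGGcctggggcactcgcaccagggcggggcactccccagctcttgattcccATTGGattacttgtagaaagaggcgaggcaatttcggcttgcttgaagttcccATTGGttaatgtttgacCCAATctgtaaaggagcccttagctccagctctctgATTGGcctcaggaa
Lss, chr10:76531355-76531587, plus strand: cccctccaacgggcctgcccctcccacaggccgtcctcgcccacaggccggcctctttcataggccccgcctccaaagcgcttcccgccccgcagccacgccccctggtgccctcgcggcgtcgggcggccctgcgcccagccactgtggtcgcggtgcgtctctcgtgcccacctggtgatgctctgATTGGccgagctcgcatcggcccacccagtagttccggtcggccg
Ebp, chrX:8193513-8193762, minus strand: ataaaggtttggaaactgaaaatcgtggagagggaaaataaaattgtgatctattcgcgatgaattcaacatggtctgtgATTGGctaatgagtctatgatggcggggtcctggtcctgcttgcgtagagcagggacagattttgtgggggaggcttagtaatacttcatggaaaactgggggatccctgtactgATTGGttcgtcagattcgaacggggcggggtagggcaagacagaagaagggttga
In these windows Hmgcs1 held the SRE core, starting 137 bases before the RefSeq start, beside 3 CCAAT matches. The E-box lay 101 bases before the start of Insig1 and 98 bases before that of Sc5d. Mvk carried 5 CCAAT matches, Ebp carried 2, and Lss, Insig1 and Sc5d carried 1 each.

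The 28 genes had 37 RefSeq starts, and a gene was counted if the 250 bases before any of its starts held the motif. Genes of the whole table were counted the same way. CCAAT was present in 20, against 37.5% of 27025 genes with a promoter in the table and 40.3% of the 10397 of them that were tested here. The GC box GGGCGG, a motif bound by Sp1-type factors, was present in 23, against 35.4% and 61.5%. The E-box CACGTG was present in 6 (Abca1, Dhcr7, Hsd17b7, Insig1, Sc5d and Scap), against 6.86% and 9.7%. Only Hmgcs1 held the exact SRE core, against 1.22% and 1.23%. By response, CCAAT was found in 8 of 12 genes that fell and 11 of 15 that did not pass the test, and the E-box in 1 of 12 and 5 of 15. The E-box and CCAAT of Dhcr7, the only fallen gene with an E-box, lay only in windows inside the annotated gene. The same held for the CCAAT of Tm7sf2 and Vldlr and for the only window of Acaca. Among genes that did not pass the test, the E-box of Scap and every CCAAT match of Cyp51, Idi1 and Msmo1 also lay inside the annotated gene. A match describes letters in a window and is neither a bound site nor a cause.

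As a check of the group labels, Rtf1 held 94.0, 91.2 and 88.3 CPM (counts scaled to a common library size, with TMM factors) in control replicates 1, 2 and 3 and 45.3, 30.4 and 26.2 CPM in KO replicates 1, 2 and 3, which left 37.2% of the control mean (log2 fold change −1.42, SE 0.191, edgeR adjusted p = 0.000755). Total counts ran from 16489813 to 51271226 per library. Replicate 3 of each group carried Y-linked reads, 11376 in control and 5147 in KO, where the other libraries held 1 to 3. All 6 T cell markers were present; Cd3e (0.71, adjusted p = 0.00242) and Cd3g (0.72, 0.0221) were higher in KO and Cd4 (−0.94, 0.00132), Cd5 (−0.60, 0.00896) and Lck (−0.60, 0.00785) lower, values being log2 fold changes with adjusted p. Summed, they were at 1871 to 2213 CPM in control and 1570.4 to 1730 CPM in KO, and the summed level of 9 Th17 genes was 2611 to 3160.0 CPM in control and 1041 to 1832 CPM in KO, with 5 of the 9 lower. Fibroblast, adipocyte, erythroid and B cell markers summed to at most 3.09 CPM per library, with Col3a1, Lep and Hba-a2 at 0 in every library and Cd79b of the B cell list lower (−1.96, adjusted p = 0.0236). The 5 CD8 and NK cell markers summed to 6.93 to 10.5 CPM in control and 6.49 to 11.8 CPM in KO, with Ncr1 and Klrb1c at 0; Eomes, one of them, was higher, at 1.55 ± 0.603 CPM in KO against 0.0991 ± 0.0574 CPM in control (SD, n = 3; 3.78 on the log2 scale, adjusted p = 0.000946). Of 5 myeloid markers, Cd68 and Csf1r were higher in KO, and the list summed to 2.08 to 5.04 CPM in control and 16.4 to 27.3 CPM in KO. Most of that sum was Cd68, at 3.19 ± 1.32 CPM in control and 20.0 ± 6.11 CPM in KO (SD, n = 3). Lyz2, Itgam and Adgre1 were too low to be tested. Their means were 0.0454, 0.0306 and 0.0474 CPM in control and 0.816, 0.0216 and 0.0445 CPM in KO. All 10 proliferation genes were lower, from 3154 to 4788 CPM summed in control to 1259 to 2241 CPM in KO. The part of the shifts in proliferation, T cell, Th17, CD8 and NK cell and myeloid markers in the results on lipid genes was not tested.

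In KO cells 17 of the 36 genes fell and 1 rose (edgeR's quasi-likelihood test, adjusted p under 0.05 over all 14268 genes). Among all tested genes 46.1% were called, 22.9% lower and 23.2% higher, so the 50% called among the 36 lies near the background, while 47.2% of them were lower and 2.78% higher. A fall of at least 2-fold was found in 11 of the 36, where 11.0% of all tested genes fell by as much. The median log2 fold change was −0.45 over the 36 genes and 0.013 over all tested genes. Every KO library lay below every control library in 18 of the 36 genes and above in 2, together 55.6%, against 57.9% of all tested genes. By direction, 3997 of the 14268 tested genes had KO wholly below control and 4260 had KO wholly above. These are RNA levels in bulk cultures, where fewer cells of a type and less RNA per cell cannot be told apart. Of the 17 genes that fell, 5 belong to the mevalonate pathway, 5 to the sterol steps, 6 to fatty acid synthesis and 1, Vldlr, to uptake, and none of the 5 SREBP control genes was called.

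**Figure D1:**
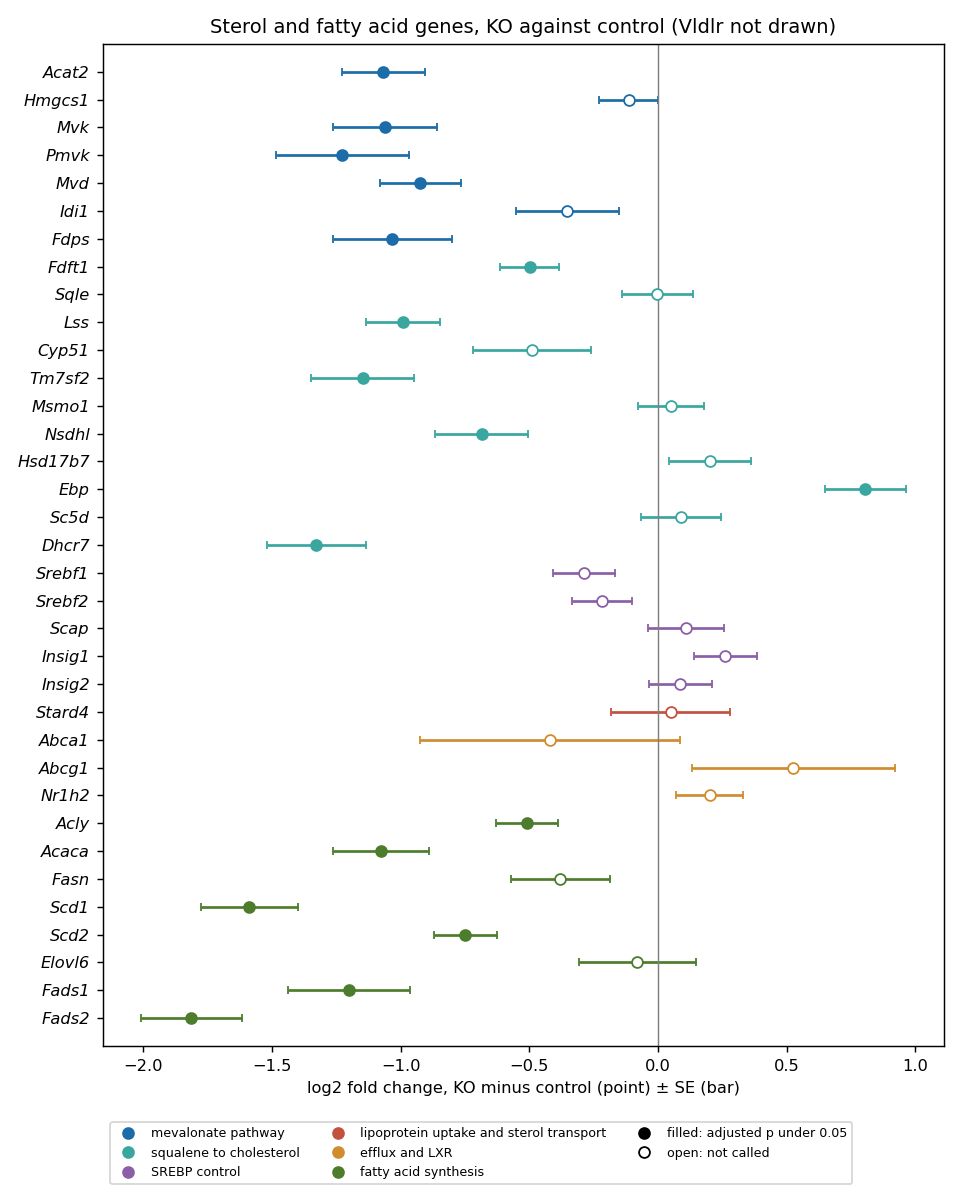
Log2 fold change of KO minus control (x axis) for 35 of the 36 genes, grouped by role and coloured by it. Points are edgeR estimates, bars are ± SE, filled points passed the threshold and open points did not; Vldlr, at −5.29, is left out so that the others can be read. Most filled points lie left of 0, Ebp is the only filled point to the right, and the SREBP control and efflux genes are all open.

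Of the 7 mevalonate pathway genes 5 fell and none rose. Acat2, the cytosolic thiolase that joins the first acetyl-CoA units, held 89.9, 105 and 70.2 CPM in control replicates 1, 2 and 3 and 47.0, 40.6 and 38.8 CPM in the KO replicates. Its groups did not overlap, and the fall was 2.10-fold (log2 fold change −1.07, SE 0.161, adjusted p = 0.00123). The next enzyme, HMG-CoA synthase (Hmgcs1), gave 179, 204 and 170.1 CPM in control and 161, 174 and 177 CPM in KO. These ranges overlapped, and the log2 fold change of −0.11 did not pass the test (adjusted p = 0.444, 95% interval −0.37 to 0.15).

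The genes of all 3 enzymes that phosphorylate and decarboxylate mevalonate fell. Mevalonate kinase, Mvk, was at 27.5, 26.1 and 17.5 CPM in control and 12.4, 9.83 and 11.8 CPM in KO (log2 fold change −1.06, SE 0.201, adjusted p = 0.00324). Phosphomevalonate kinase, Pmvk, was at 42.6, 49.2 and 25.7 CPM and 19.4, 18.1 and 12.5 CPM (−1.23, SE 0.257, adjusted p = 0.00515). The decarboxylase gene Mvd was at 46.4, 56.1 and 39.6 CPM and 27.6, 23.3 and 24.0 CPM (−0.92, SE 0.158, adjusted p = 0.00207). In each of the 3 genes the highest KO library lay below the lowest control library, and the lowest control library was replicate 3 each time.

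The last steps of this stretch make the farnesyl unit. Isopentenyl diphosphate isomerase, Idi1, held 64.3, 72.5 and 43.2 CPM in control and 53.8, 47.7 and 39.5 CPM in KO, with overlapping groups (log2 fold change −0.35, adjusted p = 0.179). It passed the test with the replicate number as a block (adjusted p = 0.0481) and without control replicate 3, its lowest control library (−0.60, adjusted p = 0.00992). Farnesyl diphosphate synthase, Fdps, was lower at 4.44, 4.59 and 6.35 CPM in KO against 12.6, 9.10 and 9.74 CPM in control (−1.03, SE 0.232, adjusted p = 0.00695). The Fdps value is uncertain: other genes' transcripts, mainly Gm43738, contain 26.2% of its 50-base sequence windows, and 26.7% of its exonic bases are overlapped. The shared part of the windows was 39.1% for Acat2, mainly with Acat3 and Tcp1, 25.3% for Idi1 and 11.6% for Hmgcs1, so these values carry the same doubt.

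From squalene to cholesterol 5 of 11 genes fell, 1 rose and 5 did not pass the test. At the entry, squalene synthase (Fdft1) gave 102, 111 and 89.6 CPM in control replicates 1, 2 and 3 and 72.2, 68.0 and 73.8 CPM in KO. This smaller fall of 1.41-fold passed the test (log2 fold change −0.50, SE 0.115, adjusted p = 0.0078); 26.5% of its windows are shared, mainly with Ctsb, which makes the value uncertain. Squalene epoxidase, Sqle, a rate-limiting step, held 139.9, 145 and 105 CPM and 134, 124 and 132 CPM, with means of 130.1 ± 21.7 and 129.8 ± 5.51 (SD, n = 3). KO libraries of Sqle sat inside the control range (log2 fold change −0.0030, adjusted p = 0.987, 95% interval −0.32 to 0.31), and the sign turned without control replicate 2 (0.071) and without KO replicate 2 (0.035).

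Lanosterol synthase, Lss, which closes the ring system, dropped to 50.4% of the control mean. Its levels were 121, 106 and 88.9 CPM in control and 58.2, 46.7 and 53.9 CPM in KO (−0.99, SE 0.144, adjusted p = 0.00104). Cyp51, the lanosterol demethylase, spread widely in control, at 303, 344 and 179 CPM, and lay at 230.0, 181 and 178 CPM in KO. Control replicate 3 stood level with the KO libraries, and the difference did not pass (−0.49, adjusted p = 0.109). Blocking on the replicate number brought Cyp51 under the threshold (adjusted p = 0.0388), as did a fit without control replicate 3 (−0.78, adjusted p = 0.0031).

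The reductase gene Tm7sf2, low throughout, fell from 14.7, 16.2 and 11.8 CPM in control to 7.18, 6.70 and 5.34 CPM in KO (−1.15, SE 0.201, adjusted p = 0.00232), with 9.87% of its windows shared, mainly with Vps51. Of the 3 genes of the C4-demethylation complex only the dehydrogenase Nsdhl was called. Nsdhl was at 43.8, 46.2 and 28.9 CPM in control and 24.4, 24.5 and 25.0 CPM in KO (−0.69, SE 0.181, adjusted p = 0.0142), and the call was lost without control replicate 1 (adjusted p = 0.0502), control replicate 2 (0.0504) or KO replicate 2 (0.0557). The oxidase Msmo1, at 105 ± 14.8 and 109 ± 7.52 CPM (SD, n = 3; 0.051, adjusted p = 0.769, 95% interval −0.24 to 0.34), and the ketoreductase Hsd17b7, at 38.3 ± 5.56 and 44.1 ± 6.40 CPM (0.20, adjusted p = 0.326, 95% interval −0.16 to 0.56), did not pass. For Msmo1 the sign turned without control replicate 1 (−0.012), control replicate 3 (−0.11) or KO replicate 3 (−0.0079). Whether Nsdhl differs from its partners in response was not tested.

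Ebp, the sterol isomerase, was the only gene of the 36 that rose. It held 42.4, 49.6 and 32.3 CPM in control replicates 1, 2 and 3 and 71.0, 70.8 and 75.4 CPM in KO, a 1.75-fold increase (log2 fold change 0.81, SE 0.159, adjusted p = 0.00384). All KO libraries exceeded all control libraries, no window of Ebp is shared with another gene, and leaving out 1 library kept the log2 fold change between 0.59 and 0.95. Ebp and Nsdhl lie on the X chromosome; with the libraries numbered 1 and 2 only, none of which carried Y-linked reads above 3, the log2 fold change of Ebp was 0.62 (adjusted p = 0.00417).

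The final enzymes again split. Sc5d, the desaturase, was at 76.3 ± 16.1 and 81.1 ± 2.51 CPM (SD, n = 3; 0.09, adjusted p = 0.665, 95% interval −0.27 to 0.44), and its sign turned without control replicate 3 (−0.13). Dhcr7, the last reductase before cholesterol, gave 42.9, 47.6 and 33.6 CPM in control and 20.1, 13.5 and 15.9 CPM in KO. That 2.51-fold fall was the largest of the 18 cholesterol synthesis genes (−1.33, SE 0.192, adjusted p = 0.00102).

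**Figure D2:**
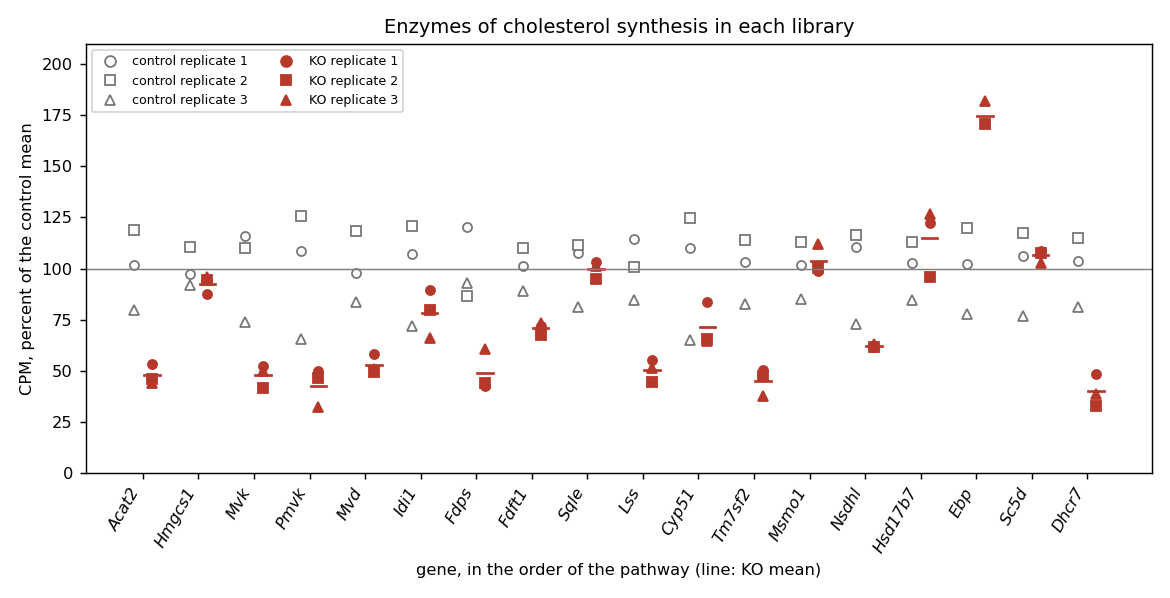
CPM of 18 cholesterol synthesis genes in each library as a percent of the gene's control mean (y axis), in the order of the pathway (x axis). Grey open symbols are control and red filled symbols KO libraries, shaped by replicate number, and the red line is the KO mean. KO symbols lie below all control symbols for 10 genes and above them for Ebp, and control replicate 3 (open triangle) is the lowest control library in 17 of the 18 genes. Groups did not overlap in 61.1% of the 18 genes, against 57.9% of all tested genes.

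Together 10 of the 18 cholesterol synthesis genes fell and 1 rose, with a median log2 fold change of −0.59. The shares were 55.6% lower and 5.56% higher, against 22.9% and 23.2% of all tested genes. Groups did not overlap in 61.1% of the 18, near the 57.9% of all tested genes. Summed over the 18 genes the level was 1499, 1640.0 and 1126 CPM in control replicates 1, 2 and 3 and 1177, 1077 and 1113 CPM in KO. These sums overlapped, since control replicate 3 lay below KO replicate 1. Control replicate 3 was the lowest control library in 17 of the 18 genes, the exception being Fdps. Among libraries of equal replicate number, the log2 ratio of KO to control had medians over the 18 genes of −0.62, −0.92 and −0.25 for numbers 1, 2 and 3. KO lay below control at all 3 numbers in 12 genes and above at all 3 only in Ebp. No such count was made over all tested genes.

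None of the 5 genes of SREBP control passed the test. Srebf1, which encodes SREBP-1, held 174, 169 and 145 CPM in control and 126, 127 and 145 CPM in KO (log2 fold change −0.29, SE 0.119, adjusted p = 0.0765). KO replicate 3 overlapped control replicate 3, and Srebf1 was called as lower without control replicate 3 (−0.42, adjusted p = 0.02) and with the libraries numbered 1 and 2 only (−0.43, adjusted p = 0.0187). Srebf2, which encodes SREBP-2, was at 392, 392 and 341 CPM and 335, 298 and 334 CPM, with every KO library just under every control library (−0.22, adjusted p = 0.162, 95% interval −0.49 to 0.051). The escort Scap was at 86.6 ± 14.7 and 93.3 ± 8.67 CPM (SD, n = 3; 0.11, adjusted p = 0.565), and its sign turned without control replicate 3 (−0.081); 9.96% of its windows are shared with 5830462I19Rik, which overlaps 13.2% of its exonic bases, so its level is uncertain.

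Insig1, the retention protein whose gene is itself an SREBP target, gave 146, 153 and 123 CPM in control and 159, 167 and 181 CPM in KO. All KO libraries lay above all control libraries, but the difference of 0.26 did not pass (SE 0.122, adjusted p = 0.109); with library size as the only scaling it did (0.35, adjusted p = 0.0411). The ratio of Insig1 to Srebf2 within a library was 0.373, 0.391 and 0.360 in control and 0.475, 0.558 and 0.542 in KO, with no overlap. That separation follows from the levels of Insig1 and Srebf2 already given, adds no evidence to them, and was not tested. The groups did overlap for Insig1 relative to Insig2, at 3.24 ± 0.455 and 3.66 ± 0.294, and relative to Scap, at 1.64 ± 0.129 and 1.83 ± 0.289 (SD, n = 3). Insig2 was at 43.6 ± 1.71 and 46.3 ± 4.86 CPM (SD, n = 3; adjusted p = 0.582, 95% interval −0.19 to 0.36), with the sign turning without control replicate 1 (−0.0084). Srebf1 relative to Srebf2 averaged 0.433 ± 0.0101 over the control libraries and 0.413 ± 0.0310 over the KO libraries (SD, n = 3), with overlapping groups.

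Vldlr, the very low density lipoprotein receptor, which takes up triglyceride-rich particles, showed the largest change of the 36. It held 48.8, 40.4 and 71.3 CPM in control replicates 1, 2 and 3 and 0.911, 1.34 and 1.93 CPM in KO, where the lowest library had 24 reads. The KO mean was 2.60% of the control mean (log2 fold change −5.29, SE 0.318, adjusted p = 4.7e-05). Vldlr spans chr19:27216484-27254231 (GRCm38, plus strand), shares no window with another gene and overlaps none, and its log2 fold change lay between −5.55 and −5.07 over the fits that left out 1 library. Stard4, a carrier of cholesterol inside the cell, was at 254, 278 and 239 CPM in control and 186, 237 and 375 CPM in KO. KO replicate 3 was the highest of the 6 libraries and KO replicate 1 the lowest, so the groups overlapped widely (0.049, adjusted p = 0.876), and the sign turned without KO replicate 3 (−0.28), control replicate 3 (−0.060) or control replicate 1 (−0.030).

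The efflux side did not pass the test either. Abca1, the transporter that loads cholesterol onto lipid-poor apolipoprotein, held 13.0, 11.4 and 35.8 CPM in control and 7.29, 14.2 and 23.9 CPM in KO, and replicate 3 was the highest in both groups (−0.42, SE 0.504, adjusted p = 0.52); without control replicate 3 its sign turned (0.25). Abcg1, which exports sterol to larger lipoprotein particles, was at 14.3, 18.9 and 36.6 CPM and 17.8, 39.4 and 43.8 CPM (0.53, SE 0.395, adjusted p = 0.302). Abcg1 was higher in KO at each replicate number and passed with the replicate number as a block (0.55, adjusted p = 0.0228) and without control replicate 3 (0.95, adjusted p = 0.0359). The ratio of Abcg1 to Abca1 was 1.10, 1.66 and 1.02 in control and 2.45, 2.77 and 1.83 in KO, with no overlap. Nr1h2, which encodes the sterol sensor LXR-beta that drives both transporters, was at 56.9 ± 2.75 and 65.5 ± 9.52 CPM (SD, n = 3; adjusted p = 0.233, 95% interval −0.094 to 0.50).

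**Figure D3:**
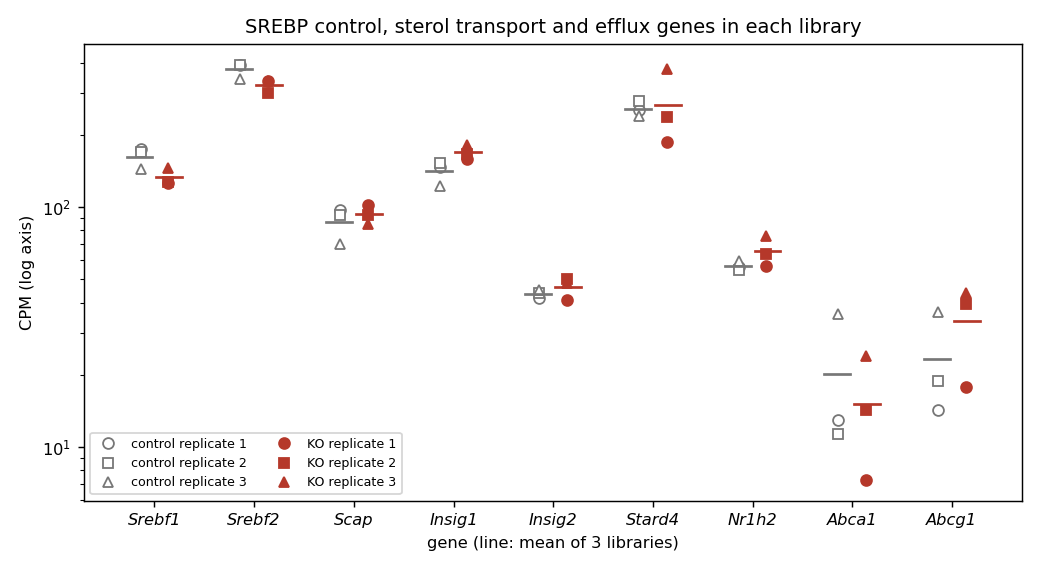
CPM on a log axis (y axis) for 9 genes of SREBP control, sterol transport and efflux (x axis) in each library. Grey open symbols are control, red filled symbols KO, shaped by replicate number, and lines are means of 3 libraries. The groups are separate for Srebf2 and Insig1 and overlap for the other genes, and Abca1 and Abcg1 spread most within each group.

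Of the 8 fatty acid synthesis genes 6 fell and none rose. Acly, the citrate lyase that supplies cytosolic acetyl-CoA to both routes, gave 537, 581 and 474 CPM in control and 376, 375 and 367 CPM in KO (−0.51, SE 0.121, adjusted p = 0.00889). Acetyl-CoA carboxylase, Acaca, the committed step, gave 159.8, 152 and 131 CPM and 91.8, 57.4 and 60.5 CPM (−1.08, SE 0.186, adjusted p = 0.0022). Both genes had KO libraries wholly below the control libraries, and the Acaca value is uncertain because 30.4% of its windows are also found in other genes, mainly Gm5182. Fatty acid synthase, Fasn, was at 531, 433 and 348 CPM and 411, 276 and 322 CPM, with KO replicate 1 inside the control range (−0.38, adjusted p = 0.139). A block on the replicate number brought Fasn past the threshold (adjusted p = 0.0289), and so did a fit without control replicate 3 (−0.57, adjusted p = 0.027).

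All 4 fatty acid desaturase genes of the list fell. Scd2, a stearoyl-CoA desaturase and the most abundant of the 36 transcripts, held 2101, 2099 and 1996 CPM in control replicates 1, 2 and 3 and 1156, 1230.1 and 1299 CPM in KO (−0.75, SE 0.122, adjusted p = 0.00172). Its neighbour Scd1, with the same reaction, dropped from 214, 182 and 133 CPM to 52.6, 54.7 and 68.8 CPM (−1.59, SE 0.188, adjusted p = 0.000458). The ratio of Scd1 to Scd2 was 0.102, 0.0868 and 0.0666 in control and 0.0455, 0.0445 and 0.0530 in KO, so every KO library had less Scd1 per Scd2 than any control library. They lie at chr19:44293674-44306864 and chr19:44394455-44407879 (GRCm38) and 3.97% of the windows of Scd2 and 4.56% of those of Scd1 are shared within the Scd family.

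Fads1 and Fads2, the desaturases that make polyunsaturated fatty acids, stand side by side on chromosome 19, Fads2 at chr19:10062765-10101746 and Fads1 at chr19:10182888-10196877. Fads1 held 67.8, 79.3 and 49.4 CPM in control and 37.7, 26.7 and 21.05 CPM in KO (−1.20, SE 0.238, adjusted p = 0.00395). Fads2 held 60.004, 60.2 and 43.9 CPM and 17.3, 11.9 and 17.5 CPM, leaving 28.5% of the control mean (−1.81, SE 0.197, adjusted p = 0.000331). Neither gene had overlapping groups. The ratio of Fads2 to Fads1 was 0.885, 0.759 and 0.888 in control and 0.460, 0.447 and 0.833 in KO, so KO replicate 3 overlapped the control range. Elovl6, which lengthens saturated fatty acids, was at 70.5, 70.7 and 115 CPM and 61.6, 83.5 and 97.5 CPM (−0.08, adjusted p = 0.794, 95% interval −0.59 to 0.44), and its sign turned without control replicate 3 (0.14) or KO replicate 1 (0.078).

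**Figure D4:**
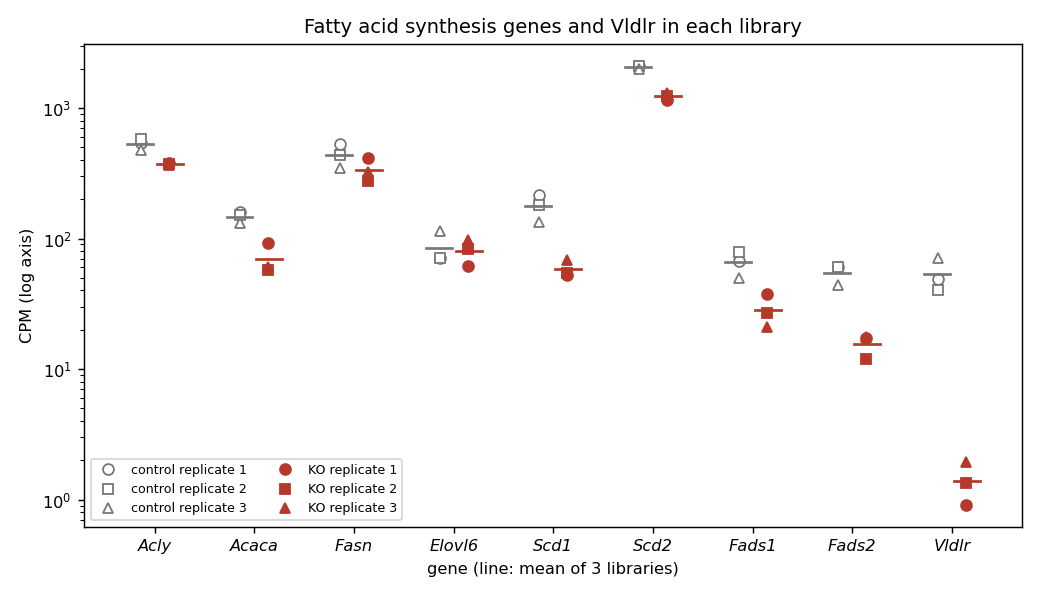
CPM on a log axis (y axis) for the 8 fatty acid synthesis genes and Vldlr (x axis) in each library. Grey open symbols are control, red filled symbols KO, shaped by replicate number, and lines are means of 3 libraries. KO libraries lie below every control library for 6 of the 8 genes and for Vldlr, and overlap control for Fasn and Elovl6. Groups did not overlap in 57.9% of all tested genes.

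Summed over the 8 genes, fatty acid synthesis transcripts were at 3563 ± 240.1 CPM in control and 2191 ± 69.6 CPM in KO (SD, n = 3), and the groups did not overlap. The sum is carried mostly by Scd2. Per kilobase of annotated exon, Scd2 was the highest of the 36 in control at 378 CPM per kb, followed by Acly at 101 and Cyp51 at 62.4 CPM per kb, and Abca1 was the lowest at 1.94 CPM per kb. On this scale Scd1 moved from 36.1 to 12.0 CPM per kb and Ebp from 17.9 to 31.3 CPM per kb.

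Beyond the 36, a further 51 genes of the same routes were compared, of which 44 passed the filter on low counts. Of these 11 were higher and 13 lower, 54.5% against the background of 46.1%, with a median log2 fold change of 0.0076. Among 19 tested sterol genes 9 rose and 5 fell, and among 25 tested fatty acid genes 2 rose and 8 fell (9 with the replicate block, which added Hacd1). At least 2-fold changes were called in 12 genes, where 22.3% of all tested genes were called with such a change in either direction, and the 12 are named here. In the sterol group Soat2, a cholesterol esterifying enzyme, fell from 13.1 ± 2.66 to 4.28 ± 0.774 CPM (SD, n = 3; −1.61, adjusted p = 0.00102). The lipoprotein receptor Lrp8 (−1.39, adjusted p = 0.00105), the HDL receptor Scarb1 (−1.25, adjusted p = 0.000585) and the sterol-responsive Tmem97 (−1.36, adjusted p = 0.00266) fell as well; Tmem97 shares 20.8% of its windows, mainly with Gm5809.

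Of the 9 sterol genes that rose, 3 did so by at least 2-fold. Soat1 rose by less, and in every library it was more abundant than Soat2, which fell. Its KO libraries held 105, 118 and 109 CPM, all above the 86.7, 76.3 and 95.7 CPM of control (0.36, adjusted p = 0.0344). Npc2, which hands cholesterol out of lysosomes, rose from 299.6 ± 87.6 to 711 ± 229 CPM (SD, n = 3; 1.25, adjusted p = 0.00542). Nr1h3, which encodes LXR-alpha, rose but stayed low, at 0.527 ± 0.100 and 2.13 ± 0.465 CPM (1.99, adjusted p = 0.0025). Mylip, a ubiquitin ligase for lipoprotein receptors, was at 2.67 ± 1.47 and 6.52 ± 2.57 CPM with overlapping groups (1.27, adjusted p = 0.041); the call was lost with upper-quartile scaling (adjusted p = 0.0535) and without control replicate 1 (adjusted p = 0.119), control replicate 2 (0.125), KO replicate 2 (0.0993) or KO replicate 3 (0.141).

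In the fatty acid group Fads3, next to Fads2 at chr19:10041569-10060110, fell from 2.57 ± 0.659 to 0.580 ± 0.133 CPM (SD, n = 3; −2.12, adjusted p = 0.00209), so all 3 genes of this cluster were lower. Acacb, the mitochondrial carboxylase, was lower at a low level, 1.38 ± 0.518 and 0.330 ± 0.110 CPM (−2.10, adjusted p = 0.00596). Acss2, which makes acetyl-CoA from acetate (−1.25, adjusted p = 0.000779), and Mid1ip1, an activator of acetyl-CoA carboxylase (−1.28, adjusted p = 0.000288), fell too; 20.9% of the windows of Mid1ip1 are shared, mainly with Gm14493. Elovl7, an elongase, rose from 5.15 ± 0.672 to 13.1 ± 2.29 CPM (1.34, adjusted p = 0.00136).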

How the data were processed

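The authors deposited whole-number counts per gene symbol for 6 libraries. The submitters' processing notes name STAR, featureCounts, DESeq2 and mm10; versions, annotation, strand setting and the treatment of reads with several matches are not given in the sources used here. Each column was matched to its sample by description, and group and replicate number came from titles. Counts were tested with edgeR 4.0.16 (R 4.3.3): TMM factors, filterByExpr by group, quasi-likelihood test of KO against control over the 6 libraries, Benjamini-Hochberg adjustment over 14268 genes, calls at an adjusted p under 0.05. SE is the absolute log2 fold change over the square root of F, and 95% intervals use the test's degrees of freedom. The biological coefficient of variation was 0.212. The fit was tested on simulated data.

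The members and lists were chosen with earlier results of these data known. All 36 genes are named, and of the 51 further genes those called with at least a 2-fold change, plus Soat1 and Hacd1. Log2 CPM deviations from group means correlated at 0.27, 0.13 and 0.379 between libraries of equal number 1, 2 and 3 (unequal numbers −0.39 to 0.204). Control replicate 2 correlated more with KO replicate 1 (0.204) than with KO replicate 2 (0.13). The block fit treated libraries of equal number as pairs. It was run without regard to these correlations, but its results depend on deviations shared by libraries of equal number. No label explains the numbering, so whether equal numbers are true pairs is not known. The libraries numbered 3 were alike in carrying Y-linked reads. Shared sequence windows (50 bases, either strand), exon lengths and gene positions are from GENCODE M21 (GRCm38), which held all 36 genes. Alternatives covered scaling, filters, DESeq2, the block, and libraries left out. The promoter table lacked 8 of the 36 genes.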

Additional observations from a re-analysis of the deposited data

How the results depend on the processing

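Over 15 alternatives (4 scalings, 2 filters, DESeq2 1.42.0, the replicate block, the libraries numbered 1 and 2 only, and each library left out), 17 of the 18 called genes kept their direction and call, and Nsdhl lost its call in 3 fits that left out 1 library. The lower calls among the 36 numbered 16 to 21 and the higher calls 1 to 2 when 1 library was left out. Higher calls were 2 with library size only and 2 with the replicate block, which gave 20 lower calls; the block changed the calls of Idi1, Cyp51, Fasn and Abcg1 and of no other gene of the 36. Over all genes the block gave 7628 calls against 6574, and among the 51 further genes it added 1, Hacd1 (adjusted p = 0.029); Cd3d of the T cell markers (adjusted p = 0.00566) and a further Th17 gene passed as lower with it. Lower calls over all genes numbered 2170 (without KO replicate 2) to 3700 (without control replicate 3) when 1 library was left out, against 3269. Directions turned in 8 genes, none of them called. With library size only the turned values were 0.084 for Sqle and 0.0081 for Elovl6, and a mean count of at least 10 gave 0.0024 for Sqle. With the replicate block they were 0.0093 for Sqle and −0.012 for Stard4. With the libraries numbered 1 and 2 only they were −0.11 for Msmo1, −0.049 for Sc5d, −0.33 for Stard4 and 0.039 for Elovl6. Leaving out 1 library at a time gave log2 fold changes of −0.19 to 0.071 for Sqle, −0.11 to 0.14 for Msmo1, −0.13 to 0.21 for Sc5d, −0.081 to 0.17 for Scap, −0.0084 to 0.17 for Insig2, −0.28 to 0.25 for Stard4, −0.90 to 0.25 for Abca1 and −0.26 to 0.14 for Elovl6. The cause was not tested. Extending the promoter window by 50 bases past the start, an alternative chosen after seeing the data, left 1 gene with the SRE core. Each of the 36 genes had at least 24 reads per library, the depth that limits Vldlr in KO most.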

Other observations

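Among the 36 genes, control libraries varied more than KO libraries in 25, with a median coefficient of variation of 17.2% in control and 13.2% in KO. The same was not computed over all tested genes, so whether it is particular to these genes is not known. In the 18 cholesterol synthesis genes the medians were 17.8% and 10.6%, and 15 genes varied less in KO; in the 8 fatty acid synthesis genes they were 19.0% and 20.3%, with 4 genes varying less in KO. Control replicate 3, which carried Y-linked reads, was the lowest control library in 29 of the 36 genes and the highest in 6, among them Vldlr, Abca1, Abcg1 and Elovl6.

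The 17 genes that fell spanned 5.55 to 272 kb of genome with a median of 17.9 kb, and the 18 that did not pass the test spanned 4.34 to 129 kb with a median of 19.2 kb. Control levels per kilobase of exon had medians of 13.9 and 17.1 CPM per kb in these groups.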
